A study of Drosophila melanogaster with 16 samples.

Results

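The data describe how larvae of the fruit fly Drosophila melanogaster labelled as grn RNAi responded to 8 h of sugar feeding, read from the RNA of whole animals. The 8 libraries of that genotype, out of 16 in all, were taken by their labels: 4 from larvae on a low sugar diet (LSD) and 4 from larvae on a high sugar diet (HSD), and all 9950 genes with sufficient values were compared between them. In these animals the ubiquitous driver Tub-GAL4 expressed a hairpin RNA from one transgenic line against grain (grn), which encodes a GATA zinc finger transcription factor. The other 8 libraries came from control larvae in which the same driver was crossed to a TRiP control line, on the same diets. The LSD held 10% yeast, and the HSD held 10% yeast with 15% sugar added. All larvae were collected to LSD at 24 h after egg laying, moved to either diet at 48 h and sampled after 8 h, and each library was made from 20 pooled larvae. The genotype field of the labels names the wild type for LSD samples and an erk7 mutant for HSD samples in both genotypes, so the groups were taken from the sample titles and source names. The stage field names the 3rd instar, whereas the growth protocol names early 2nd instar larvae. Nothing in the labels says whether the 4 libraries of a group came from separate cultures, so p-values measure the spread between these libraries.

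Dietary sugar acts on transcription in the fly through a small set of factors. Mondo and its partner Mlx sense intracellular sugar phosphates, and they activate the genes of further regulators, among them the zinc finger factor Sugarbabe and the repressor Cabut. Together these factors set the level of the genes of glycolysis, the pentose phosphate pathway and fatty acid synthesis in the fat body, which stores triacylglycerol and glycogen, and in the midgut. Genes for digesting starch and polysaccharides, for burning fat and for breaking down amino acids are known to be held low when sugar is plentiful. Grain, a fly GATA factor, is otherwise studied for its roles in development.

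Reads of the targeted gene were checked first. On LSD the 4 libraries labelled grn RNAi held 227, 259, 229 and 240.3 normalized CPM (reads scaled by library depth, as normalized by the authors) of grn, and on HSD they held 207, 223, 231 and 215. The control libraries held 14.6, 17.8, 20.8 and 19.1 on LSD and 20.1, 21.6, 23.4 and 17.1 on HSD. Reads assigned to grn were thus higher in every library labelled grn RNAi than in any control library, and the libraries are called by their label throughout. The paper reports lower grn expression with this RNAi line than in controls, which these counts do not show. Whether reads of the hairpin RNA in larvae labelled grn RNAi were counted as grn was not tested. Within these larvae grn did not pass the test between the diets (log2 fold change -0.12 ± 0.10, adjusted p = 0.353, limma with Benjamini-Hochberg adjustment over 9950 genes), and an exact two-sided permutation test of 4 against 4 libraries gave p = 0.086.

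The libraries labelled grn RNAi held between 27597117 and 32644817 reads in genes on LSD and between 24310235 and 32254855 on HSD. Between 2 of these libraries on the same diet the mean chi-squared per gene was 14.32 to 41.19, above what counting error alone gives. The share of genes that this holds for was not computed. In a principal component analysis of all 16 libraries the first component, with 56.7% of the variance, separated the genotypes, and the second, with 16.2%, separated the diets. Markers of midgut, fat body, muscle, neurons, Malpighian tubules, trachea and epidermis were present in every library, and none of the summed levels was at 0. In whole-animal RNA, fewer cells of a type and less RNA per cell cannot be told apart. Cuticle genes (114 of the Rebers-Riddiford, Tweedle and Osiris families), which follow the moulting cycle, set some libraries of a group apart. Their mean log2 deviation from the group mean was 0.20, 0.20, -0.44 and 0.04 in LSD libraries 1 to 4 and -0.38, 0.39, -0.33 and 0.33 in HSD libraries 1 to 4.

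Sugar feeding changed 4146 of the 9950 genes in larvae labelled grn RNAi, 41.7% of those tested. Of these, 1823 rose (18.3%) and 2323 fell (23.3%), with a median of -0.02 on the log2 scale over all genes. Most changes were small: 1392 of the genes that rose and 1967 of those that fell changed by less than 1.5-fold. Changes of at least 2-fold that passed the test were 180 rises (1.81%) and 122 falls (1.23%), and only 24 genes rose and 23 fell by 4-fold or more. The genes with large rises included enzymes of the pentose phosphate pathway, lipogenesis and maltose digestion, and those with large falls included an amylase, 4 alpha-mannosidases and urate oxidase. Without LSD library 3 and HSD libraries 1 and 3, which stood at one end of the moult-gene spread and were left out after seeing the data, 1082 genes rose and 1403 fell, and 2457 of the 4146 genes (59.3%) were called again. All fold changes are on the scale of log2(normalized CPM + 0.5), which understates the change of low genes.

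**Figure D1:**
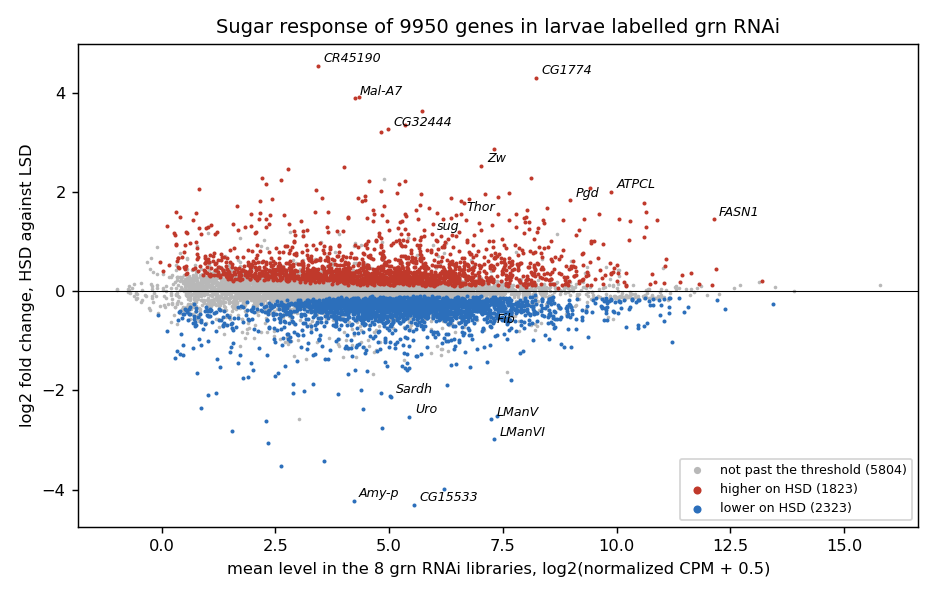
Each point is 1 of 9950 genes, with its mean level in the 8 libraries labelled grn RNAi on the x axis, as log2(normalized CPM + 0.5), and its log2 fold change on HSD against LSD on the y axis. Red points (1823) were higher and blue points (2323) lower on HSD, and grey points did not pass the test, with CR45190 and CG1774 at the top and CG15533 and Amy-p at the bottom.

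The sugar-sensing transcription factors responded in these larvae. Of 17 factors and Activin pathway genes listed, 8 rose (47.1%, beside 18.3% of all genes) and 1 fell (5.88%, beside 23.3%). The others did not pass the test, and the median log2 fold change was 0.15 beside -0.02 for all genes. Without the 3 libraries at one end of the moult-gene spread 5 rose, beside 1082 of all 9950 genes. The gene of Sugarbabe, sug, held 39.0, 36.5, 35.7 and 37.7 normalized CPM on LSD and 94.2, 77.9, 76.1 and 88.6 on HSD, so that every HSD library was above every LSD library. This is a 2.24-fold rise (log2 fold change 1.16 ± 0.09, adjusted p = 8.75e-08). Cabut (cbt) went from 49.1, 50.1, 47.3 and 47.0 to 86.0, 80.3, 77.5 and 84.8, and here too the groups did not overlap (log2 fold change 0.76 ± 0.07, adjusted p = 7.42e-07). Mondo itself rose 1.51-fold, from 143, 153, 163 and 169 to 233, 236, 230.0 and 249.8 (adjusted p = 2.46e-06), with the lowest HSD library well above the highest LSD library. Its partner Mlx, listed as bigmax, had a log2 fold change of 0.19 ± 0.10 and did not pass (adjusted p = 0.123), although it passed when the 8 libraries were fitted alone (adjusted p = 0.0303).

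The Activin-like ligand dawdle (daw), a sugar-induced hormone of the fat body, rose from 29.5 ± 1.98 to 48.5 ± 2.76 normalized CPM (mean ± SD, n = 4 and 4, adjusted p = 2.38e-06). Smox, the Smad protein that carries the Activin signal into the nucleus, rose by 0.35 ± 0.05 on the log2 scale (adjusted p = 5.83e-05), from 72.5, 71.9, 68.8 and 72.5 to 95.3, 91.0, 86.7 and 91.4 without overlap. The gene of the insulin-inhibited factor foxo fell by 0.28 ± 0.08 (adjusted p = 0.0112), a call that was lost without the 3 libraries at one end of the moult-gene spread (log2 fold change -0.25, adjusted p = 0.13). Aldh-III, an aldehyde dehydrogenase, held 164, 149, 158 and 161 on LSD and 159.9, 153, 153 and 183 on HSD. Its groups overlapped, and neither limma (adjusted p = 0.784) nor the exact permutation test (p = 0.77) separated them. Of 14 genes that the study names for this experiment, 12 reached an exact permutation p of 0.029, the exceptions being Aldh-III and grn. This is the smallest p that 4 against 4 libraries can give. The study focused on genes higher on HSD in this same experiment, so passing was in part fixed by that choice. That p is reached whenever the libraries of the diets do not overlap, and across all genes 21.2% did not overlap with HSD higher and 25.9% with HSD lower, so the absence of overlap is common in these data.

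Enzymes that take glucose into metabolism rose. Of 13 glycolytic genes, 9 rose (69.2%, beside 18.3% of all genes) and none fell, with a median log2 fold change of 0.34. Hexokinase A (Hex-A), which phosphorylates glucose, went from 124, 121, 127 and 131 normalized CPM to 217, 196, 216 and 224 (log2 fold change 0.76 ± 0.05, adjusted p = 2.03e-08). Phosphoglucose isomerase (Pgi) rose 2.01-fold, from 458 ± 20.1 to 922 ± 41.1 (n = 4 and 4). Pyruvate kinase (PyK), the last step, rose 2.03-fold, from 827, 768, 833 and 825 to 1657, 1670.0, 1679 and 1610.5 (adjusted p = 3.82e-10). In all 3 genes the lowest HSD library stood far above the highest LSD library. Gapdh1 and Gapdh2, near-identical copies of glyceraldehyde-3-phosphate dehydrogenase that may share reads, rose by 0.34 ± 0.06 and 0.52 ± 0.06 on the log2 scale. Hex-C, the hexokinase of fat body, had a log2 fold change of -0.41 ± 0.19 and did not pass in the fit over 16 libraries (adjusted p = 0.0945), but passed as a fall when the 8 libraries were fitted alone (adjusted p = 0.00987).

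All listed enzymes of the pentose phosphate pathway rose. This pathway diverts glucose-6-phosphate to make NADPH for fatty acid synthesis and ribose for nucleotides. Of its 7 listed enzymes 7 were called higher, with a median log2 fold change of 1.46. Glucose-6-phosphate dehydrogenase (Zw), the entry step, on chromosome X at 19667252-19672353 of the Release 6 assembly, held 37.9, 36.8, 40.0 and 37.9 normalized CPM on LSD. On HSD it held 242, 217, 212 and 217, a 5.75-fold rise (log2 fold change 2.52 ± 0.05, adjusted p = 2.27e-13). The libraries of each diet lay close together, and the lowest HSD library was over 5-fold above the highest LSD library. Phosphogluconate dehydrogenase (Pgd), the next NADPH-producing step, rose 3.57-fold, from 223, 208, 219 and 232 to 841, 727, 776 and 812. The transketolase-like CG8036 rose 3.43-fold, from 695, 653, 727 and 744 to 2491, 2394, 2342 and 2439. Transaldolase (Taldo) rose 2.75-fold from 334.2 ± 14.5 to 919 ± 21.7 (n = 4 and 4). The remaining steps moved less: 6-phosphogluconolactonase (CG17333) by 0.49 on the log2 scale, ribose-5-phosphate isomerase (Rpi) by 0.37, and the ribulose-phosphate epimerase CG30499 by 0.22. The last of these lost its call without LSD library 2 (log2 fold change 0.17, adjusted p = 0.0741) and without HSD library 3.

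Genes of fatty acid synthesis rose as well. Of 10 lipogenic genes, 9 rose and none fell, with a median log2 fold change of 1.35. ATP citrate lyase (ATPCL), which makes cytosolic acetyl-CoA from citrate, held 335, 376, 406 and 393 on LSD and 1606, 1531, 1453 and 1455 on HSD, a 4.01-fold rise (log2 fold change 2.00 ± 0.06, adjusted p = 9.90e-12). Acetyl-CoA synthetase (AcCoAS), which makes it from acetate, went from 503, 535, 574 and 642 to 1619, 1549, 1468 and 1546 (log2 fold change 1.46 ± 0.07). For both enzymes the HSD libraries lay above all LSD libraries by more than 2-fold. Acetyl-CoA carboxylase (ACC), the committed step, went from 792, 922, 965 and 1057 to 2393, 2164, 2136 and 2377, a 2.44-fold rise (adjusted p = 7.33e-09). Fatty acid synthase 1 (FASN1) went from 1981, 2206, 2591 and 2891 to 6949, 6072, 6218 and 6972, a 2.73-fold rise (adjusted p = 2.57e-08). The LSD libraries spread more for these enzymes than for the pentose phosphate genes, and still did not overlap the HSD libraries. The desaturase Desat1 rose 3.02-fold and malic enzyme (Men), which yields NADPH, rose 2.68-fold, from 647, 664, 709 and 706 to 1910.3, 1786, 1759.5 and 1842.

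**Figure D2:**
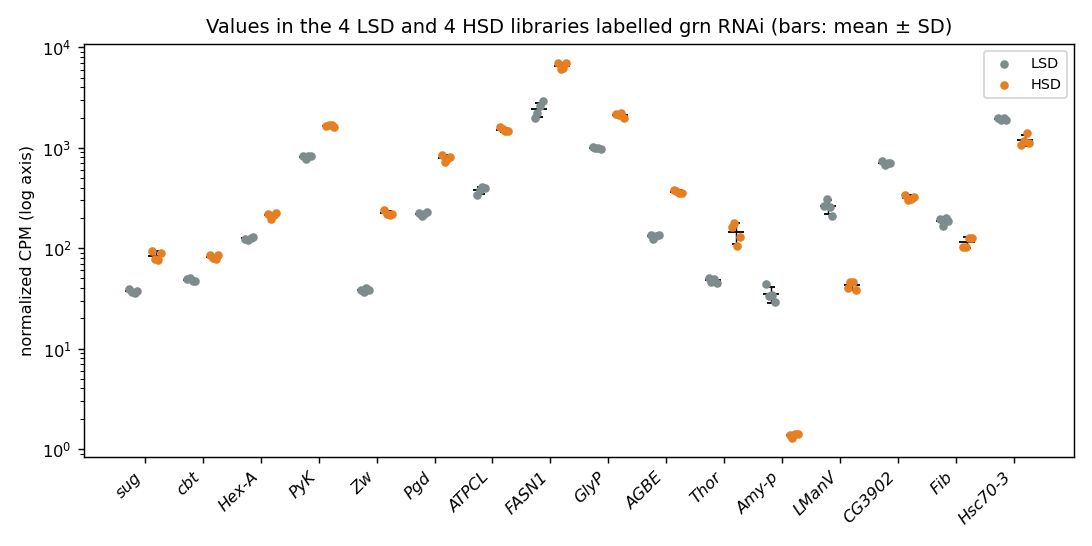
Normalized CPM (log axis) of 16 genes in the 4 LSD (grey) and 4 HSD (orange) libraries labelled grn RNAi, with black bars for mean ± SD. From sug to Thor the HSD points lie above the LSD points, as for Zw with about 38 on LSD and 212 to 242 on HSD, and from Amy-p to Hsc70-3 they lie below.

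Genes that build triacylglycerol from these fatty acids mostly rose: 8 of 14 rose (57.1%, beside 18.3% of all genes) and 3 fell (21.4%, beside 23.3%). Their median log2 fold change was 0.41. The acyltransferase fu12 held 31.7, 36.2, 35.5 and 35.5 normalized CPM on LSD and 138, 131, 123 and 122 on HSD, a 3.66-fold rise (adjusted p = 8.46e-12). Glycerol-3-phosphate dehydrogenase (Gpdh), which makes the backbone from a glycolytic intermediate, went from 1011, 941, 1043 and 1097 to 2820.3, 2693, 2688 and 2820.3 (log2 fold change 1.43 ± 0.05). Neither gene had any overlap between the diets. Glycerol kinase 2 (Gk2) rose 2.74-fold from 38.5 ± 1.14 to 106 ± 5.37. The acyltransferase mino and the final enzyme midway (mdy) rose 1.65-fold and 1.59-fold. The lipid droplet protein Lsd-1 rose 1.61-fold, whereas CG1942, a low gene of the diacylglycerol acyltransferase family, fell by 0.96 ± 0.10 on the log2 scale. Mtp, the microsomal transfer protein that loads lipid onto lipoproteins, fell by 0.67 ± 0.07 (adjusted p = 2.10e-06).

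Genes of sugar storage followed the same direction, since all 11 measured genes of glycogen and trehalose metabolism were called higher, with a median log2 fold change of 0.50. The branching enzyme AGBE held 136, 123, 133 and 134 on LSD and 379, 371, 358 and 358 on HSD, a 2.78-fold rise (adjusted p = 9.24e-10). Glycogen phosphorylase (GlyP), which releases glucose from glycogen, rose as well, from 1019.8, 994, 1000.1 and 961 to 2145, 2111, 2222 and 2001 (log2 fold change 1.09 ± 0.07). Genes of synthesis and breakdown thus moved the same way, and in both genes the groups were clearly apart. UGP, which makes the sugar donor, glycogen synthase (GlyS) and trehalose-6-phosphate synthase (Tps1) rose by 0.61, 0.39 and 0.48 on the log2 scale. Trehalase (Treh), which splits trehalose, rose by only 0.15 ± 0.06 (adjusted p = 0.0456) and lost its call in 11 of the 16 cases in which 1 library was left out, the most without LSD library 4 (log2 fold change 0.11, adjusted p = 0.146).

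The maltases, which split maltose and other small sugars at the gut surface, did not move together. Of 20 maltase, amylase and galactose genes, 11 rose (55%, beside 18.3% of all genes) and 7 fell (35%, beside 23.3%), with a median log2 fold change of 0.21. The 8 genes Mal-A1 to Mal-A8 lie in one cluster on chromosome arm 2R, between 8449664 and 8473961 of Release 6. Mal-A7 held 1.73, 1.95, 1.63 and 2.27 normalized CPM on LSD and 32.6, 41.9, 32.7 and 32.8 on HSD, the largest fold of the cluster at 14.8-fold (log2 fold change 3.89 ± 0.12, adjusted p = 8.46e-12). Its neighbour Mal-A8 went from 67.9, 63.3, 77.7 and 72.6 to 251, 274, 263 and 264, a 3.73-fold rise. Mal-A1, at the other end, went from 125, 131, 134 and 116 to 392.5, 467, 372 and 361, a 3.12-fold rise. Between these lay a gene that moved the other way. Mal-A3 fell from 55.8, 55.1, 54.1 and 42.4 to 10.6, 14.9, 11.8 and 9.69, 4.30-fold lower (log2 fold change -2.10 ± 0.15, adjusted p = 6.09e-08). Mal-A6 rose 2.02-fold, Mal-A4 fell by 0.67 ± 0.14 on the log2 scale, and Mal-A2 was not called, with a log2 fold change of 0.05 ± 0.09 (adjusted p = 0.658). Mal-A5 passed at 0.20 ± 0.07, a call lost without LSD library 1, 3 or 4 or HSD library 2 or 3 (adjusted p up to 0.111). Galactose enzymes rose: galactokinase (Galk) 2.36-fold, and CG32444, a predicted aldose 1-epimerase, 9.59-fold, from 7.06, 4.21, 4.99 and 5.77 to 55.5, 51.0, 58.7 and 59.9.

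Enzymes that digest starch and mannose polymers fell sharply. The amylase Amy-p held 43.8, 33.1, 34.0 and 28.8 normalized CPM on LSD and 1.38, 1.28, 1.41 and 1.40 on HSD, 18.8-fold lower (log2 fold change -4.23 ± 0.40, adjusted p = 1.12e-06). All 4 HSD libraries were below 2 and all 4 LSD libraries above 28. Amy-d, its near-identical neighbour with which it may share reads, fell by 2.08 ± 0.34 on the log2 scale, and reads in HSD libraries were few. Tobi (tobi), an alpha-glucosidase that responds to insulin and glucagon-like signals, fell from 42.9 ± 1.87 to 15.9 ± 2.73 (adjusted p = 8.47e-05). Of 6 lysosomal-type alpha-mannosidases, 5 fell, with a median log2 fold change of -2.79. LManIII to LManVI lie side by side on chromosome arm 2L, between 8765273 and 8781252, and their log2 fold changes were -3.43, -3.05, -2.59 and -2.99. LManV fell from 264, 312, 257 and 209 to 39.9, 46.3, 45.9 and 38.6, and LManVI fell from 281, 334.2, 297 and 209 to 31.0, 43.3, 42.9 and 24.5. The remaining pair, LManI and LManII, lie elsewhere on the same arm, between 10452677 and 10462472, and moved far less. LManII fell by 0.30 ± 0.08 (adjusted p = 0.00532), a call lost without the 3 libraries at one end of the moult-gene spread (adjusted p = 0.0645), where the log2 fold change stayed at -0.30 with fewer libraries, while LManI had a log2 fold change of -0.32 ± 0.12 (adjusted p = 0.0502) and passed with the 8 libraries fitted alone (adjusted p = 0.0332). The LMan genes are copies of one another, so that reads may be shared among them.

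Genes of fat oxidation moved against those of fat synthesis. Among 25 enzymes that release or burn fatty acids, 14 fell (56%, beside 23.3% of all genes) and none rose (median log2 fold change -0.26). CG3902, an acyl-CoA dehydrogenase, held 730.1, 667, 699.5 and 703 normalized CPM on LSD and 341, 303, 309.8 and 321 on HSD, 2.19-fold lower (adjusted p = 2.14e-10). CG12262, named Mcad in RefSeq for the medium-chain enzyme, went from 109, 104, 106 and 95.2 to 45, 56.1, 54.0 and 52.1 (log2 fold change -0.99 ± 0.12). Both were lower in all HSD libraries. CG6543, an enoyl-CoA hydratase of the same spiral, fell by 0.48 ± 0.05 on the log2 scale. CG4500, named hll in RefSeq and encoding a predicted acyl-CoA synthetase, fell much further, from 48.1, 44.4, 51.5 and 54.6 to 4.92, 7.63, 7.82 and 7.85, 6.72-fold lower (adjusted p = 5.92e-09). Of 4 genes of ketone and acetyl-CoA metabolism, 3 fell and none rose, with 2 to 3 falls under the other scalings and tests tried and 1 without the 3 libraries at one end of the moult-gene spread.

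Of 36 genes of amino acid metabolism, 8 rose (22.2%, beside 18.3% of all genes) and 13 fell (36.1%, beside 23.3%; median log2 fold change -0.04). Phosphoserine phosphatase (aay), the last step of serine synthesis, went from 37.9, 44.0, 47.2 and 51.1 normalized CPM to 167, 148, 144 and 161, a 3.43-fold rise (adjusted p = 1.86e-07). Glutamine synthetase 1 (Gs1) rose 2.7-fold from 179 ± 15.8 to 483 ± 18.0. CG7470, named P5CS in RefSeq for the first enzyme of proline synthesis, went from 178, 176, 198 and 203 to 508, 468, 481 and 504 (log2 fold change 1.38 ± 0.05). These 3 enzymes had no overlap between the diets. Sarcosine dehydrogenase (Sardh), which degrades a glycine derivative, fell 4.38-fold, from 55.9, 55.1, 48.7 and 52.5 to 11.5, 11.6, 10.6 and 13.1 (adjusted p = 3.12e-07). Urate oxidase (Uro), an enzyme of Malpighian tubules that breaks down uric acid, fell 5.77-fold, from 84.4, 69.2, 63.4 and 78.4 to 11.3, 12.9, 10.9 and 14.4 (adjusted p = 0.000553). Of 9 Malpighian tubule markers, Uro included, 3 fell (33.3%, beside 23.3% of all genes) and 1 rose (11.1%, beside 18.3%). Their median log2 fold change was 0.08. Their summed level was 330.0 to 347 on LSD and 282 to 290.3 on HSD, but this sum holds Uro itself and is no separate measure of the tubule. The part of the tubule in the fall of Uro was not tested. Tryptophan dioxygenase (v) fell 2.30-fold from 36.4 ± 2.04 to 15.6 ± 2.39, and glutamate dehydrogenase (Gdh) fell by 0.33 ± 0.06 on the log2 scale.

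Genes for making ribosomes and charging tRNAs fell. Of 29 ribosome biogenesis genes 26 fell and none rose (median log2 fold change -0.45), and all 18 aminoacyl-tRNA synthetases fell (median -0.41). Fibrillarin (Fib), the methylase of ribosomal RNA, held 197, 167, 200.3 and 186 normalized CPM on LSD and 103, 102, 125 and 127 on HSD (log2 fold change -0.72 ± 0.11, adjusted p = 9.36e-05). The nuclear chaperone Nlp went from 304, 292, 302 and 272 to 176, 178, 185 and 189 (adjusted p = 5.58e-08). Neither gene had overlapping groups. Among the synthetases LysRS and IleRS fell by 0.59 ± 0.05 and 0.44 ± 0.03 on the log2 scale. Of 34 proteasome genes, 29 fell (85.3%, beside 23.3% of all genes), by small amounts (median -0.22), with Rpn11, the deubiquitylating subunit, at -0.38 ± 0.06. Without the 3 libraries at one end of the moult-gene spread 10 fell, beside 1403 of all 9950 genes. Of 14 genes of the unfolded protein response and ATF4 pathway, 8 fell (57.1%, beside 23.3% of all genes), 2 rose (14.3%, beside 18.3%) and 4 were not called. The endoplasmic reticulum chaperone Hsc70-3, known as BiP in other animals, went from 1956, 1906, 1963 and 1871 to 1069, 1175, 1392 and 1104 (adjusted p = 5.48e-05), and calreticulin (Calr) fell by 0.68 ± 0.06. Cell cycle and replication genes fell in 20 of 34 cases (58.8%, beside 23.3% of all genes) and rose in none (median -0.22). The replication clamp PCNA held 84.1, 78.7, 82.9 and 77.6 on LSD and 54.1, 58.1, 57.7 and 57.6 on HSD (adjusted p = 3.23e-06). Cyclin E (CycE) was lower by 0.48 ± 0.08. For ribosomal proteins the count depended on scaling and on single libraries. Of 89 cytosolic ribosomal protein genes, 21 fell (23.6%, beside 23.3% of all genes), but 15 to 54 fell under the other scalings and tests tried, 12 without LSD library 1, 34 without control LSD library 1 and 4 without the 3 libraries. Of 74 mitochondrial ones 38 fell (51.4%, beside 23.3% of all genes), with a range of 31 to 55 over scalings and tests and 11 without the 3 libraries.

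Several nutrient signalling genes rose. Thor, the translation inhibitor 4E-BP that is best known as a starvation gene, held 50.3, 46.3, 49.8 and 44.9 normalized CPM on LSD and 162, 179, 104 and 131 on HSD, a 2.93-fold rise (log2 fold change 1.55 ± 0.19, adjusted p = 1.91e-05). The HSD libraries spread from 104 to 179 but all lay above the LSD libraries. REPTOR, a transcription factor restrained by TOR, rose by 0.60 ± 0.08 on the log2 scale. Of 31 genes of insulin and TOR signalling, 10 rose (32.3%, beside 18.3% of all genes) and 4 fell (12.9%, beside 23.3%), with a median log2 fold change of -0.01. Without the 3 libraries at one end of the moult-gene spread 6 rose and 2 fell. The receptor of adipokinetic hormone (AkhR), the insect counterpart of glucagon signalling, went from 17.0, 16.2, 19.2 and 19.1 to 40.5, 37.6, 35.0 and 38.3 (log2 fold change 1.07 ± 0.07, adjusted p = 4.20e-08). The peptide CCHamide-2 (CCHa2), a nutrient-sensitive hormone of fat body and gut, went from 33.7, 32.5, 34.8 and 33.8 to 49.98, 47.9, 48.4 and 54.7 (adjusted p = 1.91e-06). In both genes the diets did not overlap. The insulin-like peptide Ilp5, a low gene, fell by 0.69 ± 0.17 (adjusted p = 0.00418). Of 23 peptide hormone genes in all, 7 rose (30.4%, beside 18.3% of all genes) and 1 fell (4.35%, beside 23.3%), with a median of 0.13. Without those libraries 3 of the 23 rose, beside 1082 of all 9950 genes. Neuron markers also rose, 10 of 14 (median 0.32) or 4 without those libraries, among them the synaptic vesicle proteins nSyb and Syt1 at 0.31 ± 0.05 and 0.37 ± 0.07. The summed level of those 14 markers was 469 to 548 with LSD and 579 to 621 with HSD. In control larvae 11 of the 14 rose (median 0.33), with a sum of 417 to 505 with LSD and 538 to 559 with HSD. The interaction between genotype and diet passed in 0 of the 14. The part of neural RNA in the hormone changes was not tested.

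**Figure D3:**
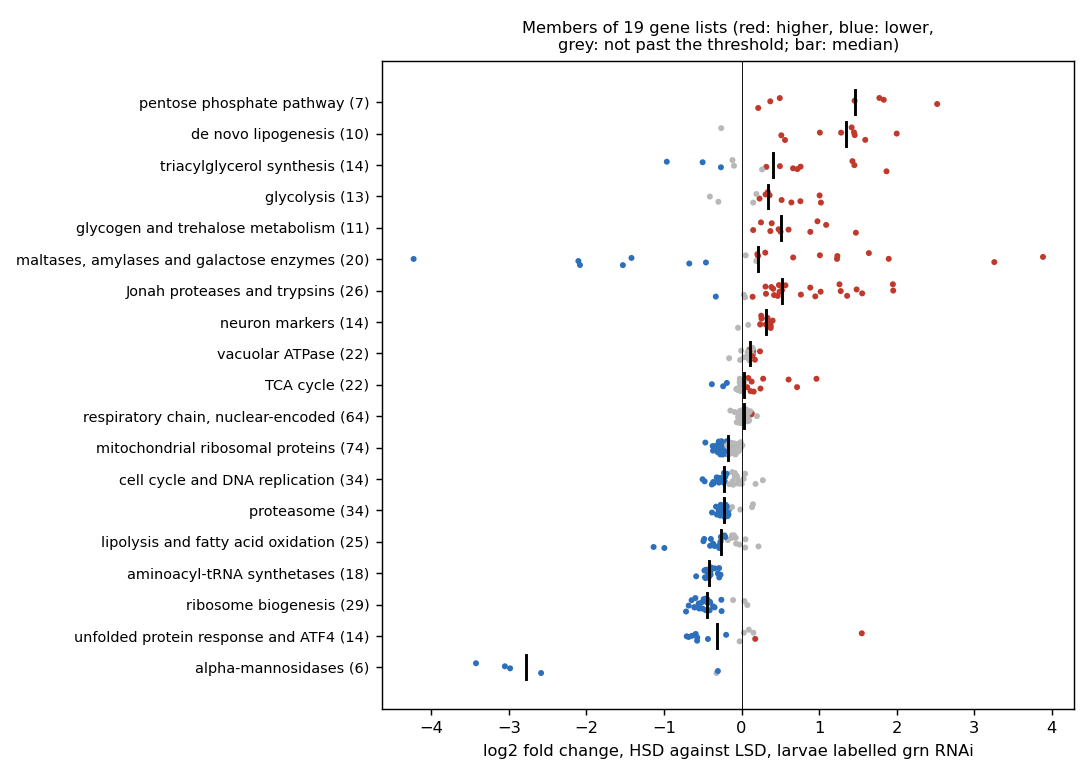
Log2 fold change on HSD against LSD (x axis) of every measured member of 19 gene lists in larvae labelled grn RNAi, with the number of members in brackets and a black bar at each median. Red members were higher, blue lower and grey did not pass the test, with medians from 1.46 in the pentose phosphate pathway to -2.79 in the alpha-mannosidases.

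Among carriers and detoxifying enzymes single genes rose and others fell. Of 18 sugar and citrate carriers, 4 rose and 4 fell (22.2% each, beside 18.3% and 23.3% of all genes), with 3 to 6 rises and 3 to 7 falls under the other scalings and tests tried and 2 rises without the 3 libraries at one end of the moult-gene spread. The citrate carrier Indy rose by 1.05 ± 0.05 on the log2 scale (adjusted p = 1.21e-09) and the sugar transporter sut1 fell by 0.98 ± 0.15 (adjusted p = 0.00013). Of 70 cytochrome P450 genes, 22 rose (31.4%, beside 18.3% of all genes) and 15 fell (21.4%, beside 23.3%). Among them Cyp6w1 changed by 1.88 ± 0.11 on the log2 scale, Cyp6a8 by 1.51 ± 0.12 and Cyp4d1 by -1.12 ± 0.05. Of 32 glutathione S-transferases, 13 rose (40.6%, beside 18.3%) and 7 fell (21.9%, beside 23.3%). Here 2 members of the same subfamily went opposite ways, since GstD8 rose by 1.42 ± 0.09 and GstD10 fell by 1.02 ± 0.10. The median log2 fold changes of the P450 and transferase lists were 0.04 and 0.14, beside -0.02 for all genes.

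Many of the largest changes were in genes with little or no assigned role. CG1774, on chromosome arm 3R at 31592803-31594719 of Release 6, held 27.3, 26.2, 30.8 and 28.6 normalized CPM on LSD and 612, 553, 532 and 572 on HSD, a 19.8-fold rise (log2 fold change 4.31 ± 0.07, adjusted p = 3.43e-15). CR45190, a noncoding RNA annotated as antisense, held 0.492, 0.411, 0.166 and 0.551 on LSD and 23.6, 18.1, 20.4 and 19.3 on HSD, a 23.3-fold rise. It lies on the opposite strand at 31588279-31590411, a short distance upstream of CG1774, and spans the gene CG1635 at 31588673-31590392. The authors counted by strand, and CG1635 itself moved far less, from 44.1, 43.6, 43.4 and 40.4 to 50.9, 50.8, 48.8 and 49.1 (log2 fold change 0.22 ± 0.06, adjusted p = 0.00831, or 0.0763 at a log2 fold change of 0.23 without the 3 libraries at one end of the moult-gene spread). CG12766, a predicted aldo-keto reductase, went from 2.28, 2.33, 1.73 and 1.75 to 32.7, 40.3, 38.2 and 39.4, a 15.2-fold rise. CG5246 and CG7142, predicted serine proteases, rose 10.3-fold and 9.19-fold, and CG14205 and CG43175 rose 7.26-fold and 5.48-fold. CG15597 and CG17738 rose 12.4-fold and 5.67-fold with a wide spread between libraries (log2 fold changes 3.64 ± 0.95 and 2.50 ± 0.64), and both lost their calls without the 3 libraries at one end of the moult-gene spread (adjusted p = 0.072 and 0.0641), although the log2 fold changes stayed at 3.63 and 2.49 with the fewer libraries.

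Among the large falls, CG15533 went from 93.9, 96.3, 89.8 and 74.2 normalized CPM to 3.64, 5.53, 4.11 and 2.98, 19.8-fold lower (log2 fold change -4.31 ± 0.18, adjusted p = 1.36e-10). CG15741 went from 179, 141, 129 and 108 to 7.15, 8.22, 7.78 and 9.89, 15.8-fold lower. Both had every HSD library far below every LSD library. CG13135, CG13560 and CG34316 fell 11.5-fold, 5.72-fold and 5.17-fold.

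The same diets in control larvae give the measure of how the response differed. The genotypes also differed in the level of the cuticle genes that follow the moulting cycle. These 114 genes summed to 7633 to 10760 normalized CPM in libraries labelled grn RNAi and to 27227 to 37958 in control libraries. The part of stage or tissue make-up in the differences between genotypes was not tested. The 2 comparisons share no library. In control larvae 41.6% of genes changed, 1918 higher (19.3%) and 2220 lower (22.3%), and 1122 of the rises, 61.5% of those in larvae labelled grn RNAi and 58.5% of those in control larvae, were shared. Of the falls 1574 were shared, 67.8% and 70.9%. The difference between the responses was tested as an interaction in the same fit. It passed in 532 genes (5.35%), of which 370 (3.72%) had the higher log2 fold change in larvae labelled grn RNAi and 162 (1.63%) the lower. Without the 3 libraries at one end of the moult-gene spread 87 and 26 passed, and 110 of the 532 genes (20.7%) were called again. With a replicate block 403 passed, of which 322 (60.5%) were among the 532. The counts also rested on single libraries: without control HSD library 3 they were 562 and 454, and the lower count was 105 without control HSD library 2, 100, 80, 76 and 83 without LSD libraries 1 to 4 labelled grn RNAi, and 82 and 80 without HSD libraries 1 and 4 of that genotype. With CPM of all recovered reads in place of the deposited scaling the split was 244 to 281, so that the higher share went from 69.5% to 46.5%. For several core sugar-response genes the test did not separate the responses: for sug the difference was -0.01 ± 0.12 (adjusted p = 0.987), for CG8036 0.08 ± 0.06 (adjusted p = 0.467) and for ATPCL 0.19 ± 0.09 (adjusted p = 0.244).

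**Figure D4:**
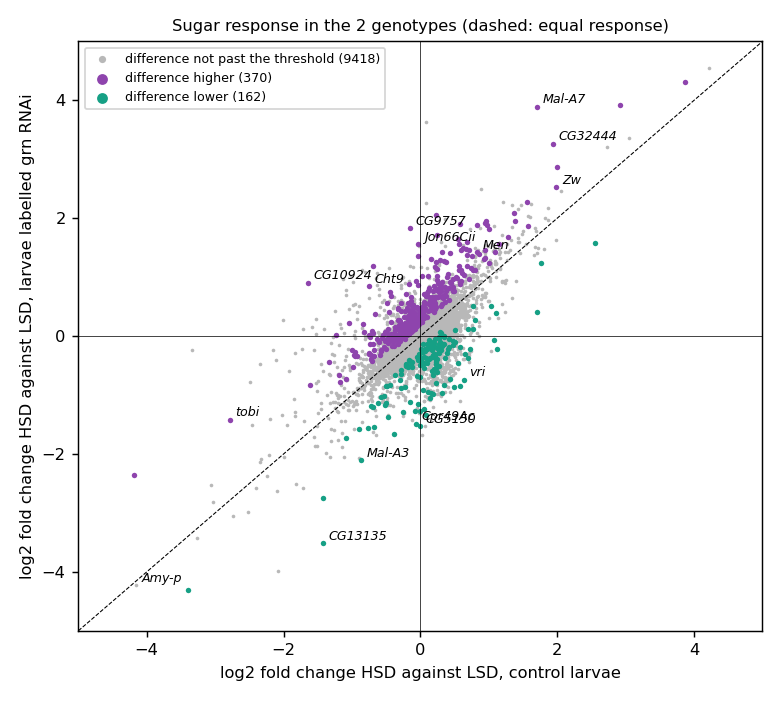
Log2 fold change on HSD against LSD in control larvae (x axis) and in larvae labelled grn RNAi (y axis) for 9950 genes, with the line of equal response dashed. Purple points (370) had a higher and green points (162) a lower response in larvae labelled grn RNAi by the interaction test, with CG10924, Mal-A7 and CG9757 far above the line and CG5150 and Cpr49Ac far below it.

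Among metabolic genes the response was larger in larvae labelled grn RNAi for some NADPH and acetyl-CoA enzymes. For Zw the difference was 0.53 ± 0.08 (adjusted p = 0.00132), with control larvae going from 56.4 ± 3.94 to 225 ± 8.13 normalized CPM. For Men it was 0.59 ± 0.07 (adjusted p = 0.000248), with control larvae going from 1070.0 ± 64.1 to 1907 ± 57.6. In both genes the groups reached similar levels on HSD and stood apart on LSD. AcCoAS, Gpdh and Gk2 had differences of 0.51 ± 0.10, 0.35 ± 0.07 and 0.74 ± 0.08 (adjusted p = 0.00717, 0.00879 and 0.000172). Among 29 alternative settings the call was lost in 2 for AcCoAS (lowest difference 0.21) and in 1 for Gpdh. CG7470 had a difference of 0.70 ± 0.07 (adjusted p = 0.000143) and Indy of 0.65 ± 0.07 (adjusted p = 0.000248). Gdh, which fell in both genotypes, fell less in larvae labelled grn RNAi, by a difference of 0.63 ± 0.08 (adjusted p = 0.000562). For the hormone CCHa2 and the receptor AkhR the differences were 0.37 ± 0.08 and 0.45 ± 0.10 (adjusted p = 0.015 and 0.0205), calls lost in 1 and 2 of the 29 settings.

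Of 3 gluconeogenic genes, 2 rose in larvae labelled grn RNAi and 2 fell in control larvae, and the interaction passed in 3, or in 1 without the 3 libraries at one end of the moult-gene spread. Only CG10924 was called in opposite directions. CG10924, named Pepck2 in RefSeq and encoding a phosphoenolpyruvate carboxykinase, rose in larvae labelled grn RNAi from 27.2, 24.9, 21.4 and 32.9 normalized CPM on LSD to 50.8, 48.4, 53.1 and 46.8 on HSD (log2 fold change 0.91 ± 0.14, adjusted p = 0.000156). In control larvae it fell from 125, 110.3, 106 and 74.3 to 35.3, 31.1, 34.4 and 29.0 (log2 fold change -1.64, adjusted p = 7.73e-07). The diets did not overlap in either genotype, and the difference was 2.55 ± 0.20 (adjusted p = 9.35e-06). Pyruvate carboxylase (PCB) rose by 0.43 ± 0.05 in larvae labelled grn RNAi, was not called in control larvae (log2 fold change 0.04), and had a difference of 0.39 ± 0.07 (adjusted p = 0.00717). Fructose-1,6-bisphosphatase (fbp) did not pass there (log2 fold change 0.11 ± 0.06, adjusted p = 0.122, or 0.0327 with the 8 libraries fitted alone), fell in control larvae (log2 fold change -0.31), and had a difference of 0.42 ± 0.08 (adjusted p = 0.0075). Trehalase (Treh), at 0.15 beside -0.21 in control larvae, had a difference of 0.36 ± 0.08 (adjusted p = 0.0196).

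Several maltases answered sugar more in larvae labelled grn RNAi. Mal-A7 started lower there, since control larvae went from 14.1 ± 1.47 to 47.1 ± 7.21, and the difference was 2.19 ± 0.17 (adjusted p = 7.03e-06). For Mal-A8, with control larvae going from 252 ± 13.2 to 378 ± 22.4, it was 1.32 ± 0.09 (adjusted p = 2.70e-06). Mal-A1 and Mal-A6 had differences of 1.09 ± 0.11 and 0.99 ± 0.12, and CG32444 of 1.32 ± 0.18. Mal-A3 was the reverse, with a deeper fall and a difference of -1.24 ± 0.21 (adjusted p = 0.00394). Tobi fell less, with a difference of 1.36 ± 0.30 (adjusted p = 0.0167). The differences for Mal-A3 and tobi each lost their call in 1 of 29 alternative settings. For Amy-p, LManIII, LManIV, LManV and LManVI the test did not separate the responses, with differences of -0.07 ± 0.56, -0.16 ± 0.29, -0.31 ± 0.24, -0.18 ± 0.19 and -0.46 ± 0.28.

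Digestive proteases of the midgut rose in larvae labelled grn RNAi. Of 26 Jonah proteases and trypsins, 23 rose with sugar in larvae labelled grn RNAi and 1 fell (median log2 fold change 0.52), whereas 8 rose and 5 fell in control larvae (median 0.00). The interaction test passed in 22 of 26, all with the higher response in larvae labelled grn RNAi (median difference 0.61), in 20 to 24 under the other scalings and tests tried, and in 14 without the 3 libraries at one end of the moult-gene spread. Jon66Cii held 17.9, 11.2, 10.4 and 11 normalized CPM on LSD and 39.4, 35.5, 38 and 35.9 on HSD (log2 fold change 1.56 ± 0.17, adjusted p = 3.81e-06). Jon65Aii went from 41.5, 36.1, 29.2 and 31.8 to 87.4, 90.5, 89.5 and 89.0 (log2 fold change 1.36 ± 0.10). Neither gene passed in control larvae, which went from 72 ± 14.4 to 69.6 ± 7.34 and from 110.3 ± 8.63 to 108 ± 11.4, so that both were lower on either diet in larvae labelled grn RNAi. Their differences were 1.59 ± 0.23 and 1.39 ± 0.14 (adjusted p = 0.00157 and 7.90e-05). Jon74E rose 3.88-fold, from 19, 21.2, 17.2 and 25.8 to 73.7, 89.8, 71.2 and 92.9, in control larvae from 300.2 ± 29.7 to 585 ± 43.3, with a difference of 0.99 ± 0.17. alphaTry and Jon44E rose 3.87-fold and 2.03-fold, with differences of 0.58 ± 0.11 and 0.91 ± 0.10. Jon99Ci was the exception and fell by 0.33 ± 0.07 on the log2 scale, a call lost without the 3 libraries at one end of the moult-gene spread (log2 fold change -0.28, adjusted p = 0.0543). Jonah genes are close copies, so that reads may be shared among them.

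**Figure D5:**
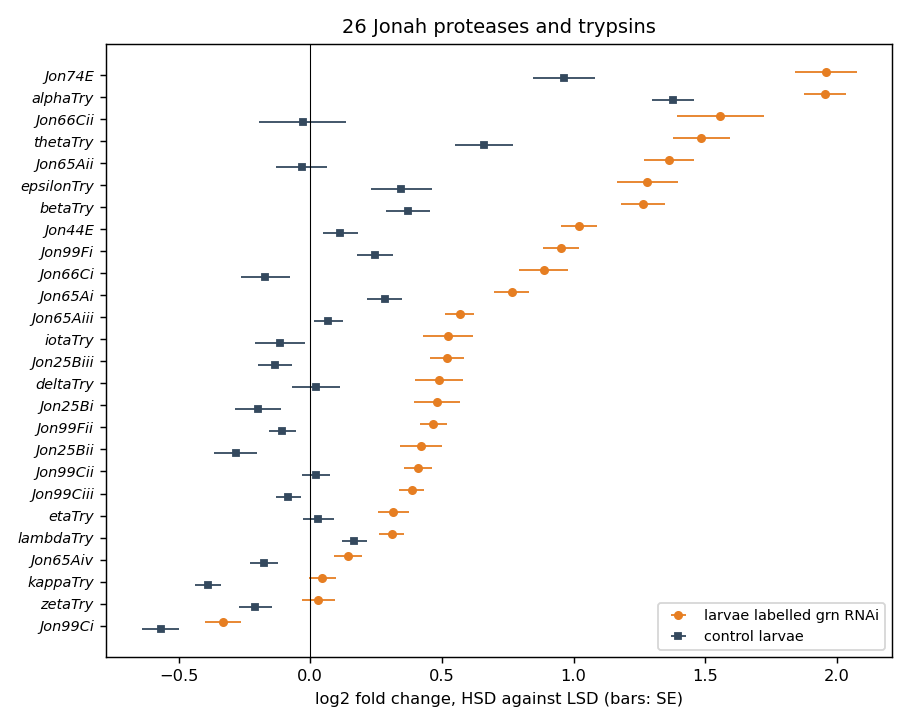
Log2 fold change on HSD against LSD (x axis, bars are standard errors) of 26 Jonah proteases and trypsins in larvae labelled grn RNAi (orange) and control larvae (dark squares), ordered by the former. The medians were 0.52 and 0.00, and the difference passed the interaction test in 22 of the 26 genes, with the orange point to the right.

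The summed level of these 26 genes was 7267 to 7950 normalized CPM on LSD and 11054 to 11542 on HSD in larvae labelled grn RNAi, beside 17826 to 19562 and 17643 to 19024 in control larvae. Midgut markers rose in sum in both genotypes. Of 14 such markers, 11 rose and 1 fell in larvae labelled grn RNAi. Their sum there, between 1720.1 and 1832 with LSD, lay between 2787 and 3039 with HSD. In control larvae 6 rose and 1 fell, and the sum lay between 3305 and 3690 with LSD and between 4027 and 4551 with HSD. The interaction passed in 6 of the 14, all with the higher response in larvae labelled grn RNAi. Of these 14, 5 are proteases of the same list. The other 9 summed to 711 to 789 on LSD and 1096 to 1191 on HSD in larvae labelled grn RNAi, with 6 rises and 1 fall (median log2 fold change 0.31), and none was at 0. In control larvae these 9 summed to 1149 to 1357 on LSD and 1400 to 1537 on HSD. They include Mal-A1 and Amy-p, whose own responses to sugar are given above, so their sum is not independent of the digestive genes. The part of midgut RNA as a whole in the protease result was not tested.

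Some other single genes differed too. The chitinase Cht9 rose from 48.0, 45.2, 42.5 and 55.9 to 85.5, 88.6, 94.6 and 76.3 in larvae labelled grn RNAi and fell from 121 ± 5.56 to 71.8 ± 2.48 in control larvae, with a difference of 1.59 ± 0.11 (adjusted p = 2.70e-06). CG9757 rose from 26.6, 43.7, 50.4 and 48.0 to 148, 155, 173 and 116, while control larvae went from 441 ± 137 to 400.0 ± 127 without passing the test (difference 1.97 ± 0.36, adjusted p = 0.00616). CG5150, named Alp9 in RefSeq for an alkaline phosphatase, fell from 157, 157, 185 and 152 to 58.8, 59.7, 60.9 and 45.9, with no fall called in control larvae (difference -1.53 ± 0.20, adjusted p = 0.000714). The cuticle protein Cpr49Ac fell from 119.9 ± 6.79 to 42.7 ± 5.06, with a difference of -1.42 ± 0.21 (adjusted p = 0.0015). Of 73 Rebers-Riddiford cuticle genes, to which it belongs, 3 rose (4.11%, beside 18.3% of all genes) and 4 fell (5.48%, beside 23.3%). The interaction passed in Cpr49Ac alone, beside 5.35% of all genes. Without control HSD library 3 it also passed in 6 with the higher response, and without the 3 libraries 1 rose. Of 5 lysozymes all fell in control larvae and 1, LysS, fell in larvae labelled grn RNAi (by 1.56 ± 0.14). The interaction passed in 3 with the higher response in larvae labelled grn RNAi, or in 1 without the 3 libraries. It also passed in LysS, which fell further there, a call lost in 10 of the 16 cases in which 1 library was left out (adjusted p up to 0.0652 without HSD library 1).

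Mitochondrial and proton pump genes differed by small amounts. Of 22 genes of the tricarboxylic acid cycle and its entry, 10 rose (45.5%, beside 18.3% of all genes) and 3 fell (13.6%, beside 23.3%) in larvae labelled grn RNAi. In control larvae 3 rose and 16 fell. The interaction passed in 12 (54.5%, beside 3.72% of all genes), all with the higher response in larvae labelled grn RNAi, and in 6 to 17 under the other scalings and tests tried. Without the 3 libraries at one end of the moult-gene spread, 5 rose, beside 1082 of all 9950 genes. The interaction then passed in 2, beside 113 of all genes. The pyruvate dehydrogenase subunit l(1)G0334, which joins glycolysis to the cycle, rose 1.95-fold from 471 ± 14.8 to 922 ± 41.4, and its partner CG7430 rose 1.52-fold. Idh, an isocitrate dehydrogenase counted in this list whose part in the cycle was not tested, fell by 0.38 ± 0.06, with a difference of 0.35 ± 0.08 (adjusted p = 0.0204). Of 64 nuclear-encoded respiratory chain genes, 3 rose (4.69%, beside 18.3% of all genes, with a range of 3 to 8) and none fell (median log2 fold change 0.03). In control larvae 36 fell (23 without control LSD library 1). The interaction passed in 13 (20.3%, beside 3.72% of all genes, with a range of 9 to 35), all with the higher response in larvae labelled grn RNAi. That count was 4 without control HSD library 4, 21 without control LSD library 4 and 0 without the 3 libraries (limma, where 28 had an unadjusted p under 0.05). ND-75, a subunit of complex I, rose by 0.13 ± 0.03 with a difference of 0.22 ± 0.05 (adjusted p = 0.0186). Of 22 vacuolar proton ATPase genes, 7 rose (31.8%, beside 18.3% of all genes, and 4 to 14 under the other scalings and tests tried) and none fell. In control larvae 1 rose and 10 fell. The interaction passed in 11 (50%, beside 3.72% of all genes, with a range of 4 to 14), all with the higher response in larvae labelled grn RNAi. Without the 3 libraries 1 rose and the interaction passed in 2, without HSD library 1 it was 2 that rose, and without control LSD library 1 the interaction passed in 7. Changes of this size in whole lists moved with the scaling and the choice of libraries.

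Genes with opposite calls in the 2 genotypes were few, 40 higher in larvae labelled grn RNAi and lower in control larvae and 12 the reverse. Besides CG10924 and Cht9, they included the P450 Cyp6g1, which rose by 0.57 ± 0.12 and had a difference of 1.06 ± 0.17 (adjusted p = 0.00294). CG13324 rose by 0.74 ± 0.11, with a difference of 1.18 ± 0.15 (adjusted p = 0.000578). CG6295, a predicted lipase, rose by 0.37 ± 0.11 with a difference of 1.04 ± 0.16, and its call in larvae labelled grn RNAi was lost without LSD library 4 (log2 fold change 0.31, adjusted p = 0.0507). The clock repressor vrille (vri) fell from 47.7, 50.3, 49.9 and 54.1 to 21.9, 34.3, 37.0 and 29.2 and rose from 17.0 ± 4.10 to 27.4 ± 10.2 in control larvae (difference -1.38 ± 0.30, adjusted p = 0.0171), a fall that was not called without the 3 libraries at one end of the moult-gene spread (log2 fold change -0.67, adjusted p = 0.0919). Called in 1 genotype only, but with a difference that passed, were GstD5, which fell in larvae labelled grn RNAi (difference -1.35 ± 0.29, adjusted p = 0.0163), and CG16775, which rose in control larvae (difference -1.33 ± 0.22, adjusted p = 0.00299). CG11966, named ich in RefSeq, fell from 94.8, 108, 94.5 and 102 to 33.5, 64.4, 73 and 58.0, a call that HSD library 1 decided, since without it the log2 fold change was -0.62 and the adjusted p 0.0556. CG31089 held 3.70, 2.98, 1.20 and 2.50 normalized CPM on LSD and 0, 0.117, 0.117 and 0.0584 on HSD, the latter at most a few reads a library, so that no fold is given.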

How the data were processed

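RNA was sequenced from whole larvae in 16 libraries, 4 for each genotype and diet. After trimming (Trimmomatic), the authors aligned to the Release 6 fly genome (TopHat2 2.1.0), counted reads per gene and strand with HTSeq (version 2.7.6 as given) and deposited normalized CPM values; their scaling step is not given in the sources used here. The values are treated as a signal, because the deposited columns sum to 929735 to 963521 in libraries labelled grn RNAi and to 1025511 to 1131938 in control libraries. Whole reads were recovered from them (100% of values whole within 0.01), and these served the count tests. Every per-sample column could be mapped to a sample. The deposited table also holds the log2 fold change, fold change, p-value and score columns of the authors' own limma comparisons, which were not used.

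Genes above 1 in at least 3 of 4 libraries of a group were kept (9950 of 9982). Log2(value + 0.5) was fitted with limma 3.58.1 in R 4.3.3, with 4 group means over all 16 libraries and a trended prior variance. Contrasts were HSD minus LSD in each genotype and their difference, two-sided, with Benjamini-Hochberg adjustment over 9950 genes and a threshold of 0.05. Errors beside log2 fold changes are standard errors, and those beside levels are SD of 4 libraries. The scripts were tested on simulated data. Alternatives were other pseudocounts (0.1 and 1), filters, scalings, fold limits, a replicate block, edgeR 4.0.16, DESeq2 1.42.0 and leaving out libraries.

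The members and the gene lists were chosen with earlier results of these data known. Named genes are the 12 largest changes each way with a group mean of at least 10 and no overlap between the diets, the 8 largest differences each way between genotypes, the genes that the study names, and up to 4 members of each list with the lowest adjusted p. A further 31 of the 136 genes named were added after their values were seen, to complete a pathway or gene cluster or to show a member that did not pass. Gene names other than those of the authors, and coordinates (9812 of 9950 genes), come from reference annotation of the same assembly. A planned search of promoter sequences was not run. No 2 libraries of a group agreed within sampling noise.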

Additional observations from a re-analysis of the deposited data

Results flagged for a closer look

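In 18 of 272 groups of 4 libraries, 1 library stood apart from the other 3 in normalized CPM, where chance gives about 1 in 20. On LSD these were Smox in library 3 (68.8, low), PyK in library 2 (768, low), fu12 in library 1 (31.7, low), Mal-A3 in library 4 (42.4, low), Jon66Cii in library 1 (17.9, high), CG5150 in library 3 (185, high), CG1635 in library 4 (40.4, low), CG13324 in library 2 (53.1, low) and GstD8 in library 2 (14.8, high). On HSD they were CG17333 (65.0, high), Mal-A6 (249, high), Mal-A7 (41.9, high) and v (19.2, high) in library 2. CG4500 (4.92, low), CG6543 (317, high) and PCNA (54.1, low) stood apart in library 1. Calr in library 3 (1220, high) and CG5150 in library 4 (45.9, low) complete them. None of these decided the direction of a change called.

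The sugar response differed between the genotypes by the interaction test (limma) in 60 of the genes named. On the log2 scale, larvae labelled grn RNAi minus control larvae, the difference for sugar digestion and uptake was 2.19 for Mal-A7, 1.32 for Mal-A8 and CG32444, 1.09 for Mal-A1, 0.99 for Mal-A6, -1.24 for Mal-A3, 1.36 for tobi, 0.64 for LManI, 0.44 for LManII, 0.65 for Indy and 0.36 for Treh. For glucose production and oxidation it was 2.55 for CG10924, 0.42 for fbp, 0.39 for PCB, 0.53 for Zw, 0.26 for Hex-A and l(1)G0334, 0.20 for CG7430, 0.35 for Idh and 0.22 for ND-75. For lipid genes it was 0.59 for Men, 0.51 for AcCoAS, 0.74 for Gk2, 0.35 for Gpdh and mdy, 0.29 for fu12, -0.62 for Mtp, -1.32 for CG4500 and 1.04 for CG6295.

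For amino acid and signalling genes the difference was 0.70 for CG7470, 0.63 for Gdh, -0.51 for v, 0.47 for Aldh-III, 0.45 for AkhR and 0.37 for CCHa2, and for replication genes -0.49 for CycE and -0.30 for PCNA. Gut proteases gave 1.59 for Jon66Cii, 1.39 for Jon65Aii, 0.99 for Jon74E, 0.91 for Jon44E and 0.58 for alphaTry. Other secreted or surface proteins gave 1.59 for Cht9, -1.53 for CG5150, -1.42 for Cpr49Ac and -0.78 for LysS. Regulators gave -1.38 for vri and -1.43 for CG11966. Detoxifying enzymes gave 1.06 for Cyp6g1, 0.91 for Cyp6w1 and -1.35 for GstD5. Of the rest, the difference was 1.97 for CG9757, 1.83 for CG31089 (both diets low, so that the value depends on the 0.5 added), 1.18 for CG13324, 1.01 for CG12766, 0.86 for CG14205, 0.44 for CG1774, -0.91 for CG15533, -1.33 for CG16775 and -2.09 for CG13135.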

How the results depend on the processing

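In larvae labelled grn RNAi the counts of genes higher (1823) and lower (2323) stayed within 1.5 times under the other pseudocounts, filters and scalings and under edgeR, DESeq2 and voom. Leaving out 1 library gave 1519 to 1898 higher and 1979 to 2411 lower. Leaving out the 3 libraries at one end of the moult-gene spread gave 1082 and 1403, and a minimum log2 fold change of 0.5 gave 556 and 515. The share of higher calls was 44.0%, but 50.3% with median-of-ratios scaling, 50.6% with DESeq2 and 39.8% with CPM of all recovered reads. In control larvae 1 library left out gave 1554 to 2008 higher and 1938 to 2293 lower. The 8 control libraries alone gave 1181 higher, the fold limit 393 higher and 414 lower, and an adjusted p under 0.01 gave 1083 higher.

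The difference between genotypes depended more on these choices. Against 370 higher and 162 lower, CPM of all recovered reads gave 244 and 281, DESeq2 685 and 326, the 3 libraries left out 87 and 26, the fold limit 133 and 86 and an adjusted p under 0.01 gave 146 and 34. Leaving out 1 library gave 249 to 562 higher and 76 to 454 lower. The difference for Pgi turned to -0.23 under quantile normalization (adjusted p = 0.0393).

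Libraries of the same number did not pair in a uniform way. For numbers 1 to 4 the correlation of their deviations was -0.443, 0.622, 0.798 and 0.208 in larvae labelled grn RNAi. In control larvae it was -0.444, 0.455, 0.55 and -0.252. With a replicate block, 4011 genes were called in larvae labelled grn RNAi, of which 3766 (90.8%) were among the 4146. In control larvae 3886 were called, and the difference passed in 403, of which 322 (60.5%) were among the 532.

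For the genes named, 3838 values were computed under alternatives for changes called in larvae labelled grn RNAi, of which 3802 kept their call, 36 lost it and 0 turned. For differences called, 1515 of 1740 kept it and 225 lost it. Leaving out 1 library ended the difference for 15 of 60 genes (Aldh-III, Hex-A, fu12, mdy, LManI, LManII, v, PCNA, CycE, CG11966, l(1)G0334, CG7430, LysS, CG15533 and CG13135), with adjusted p then up to 0.1. Other alternatives ended the difference for AcCoAS, Gpdh, PCB, fbp, Treh, Idh, ND-75, Mal-A3 and tobi. The same held for AkhR, CCHa2, alphaTry, CG9757, vri, GstD5 and CG31089. Depth limited the lowest genes, such as CG31089 and Amy-d on HSD.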
